A study of Homo sapiens with 2 samples.

Results

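The genes described here encode the collagens, the laminins and the integrins, chosen as the protein-coding genes whose symbol begins with COL, LAMA, LAMB, LAMC, ITGA or ITGB and fits the numbering of those families. They number 82 of the 62699 genes in the table: 44 collagen, 12 laminin and 26 integrin genes. RNA was sequenced from HCC1954 cells, an established human breast cancer line in which the HER2 receptor gene ERBB2 is highly expressed, in 1 library labelled ASO-NC and 1 labelled ASO-1235. Both libraries share the cell line and the polyadenylated RNA preparation. The series asks what the long non-coding RNA LINC01235 does to transcription. The labels spell out neither ASO nor NC and state no dose or time, and the title of the ASO-1235 sample begins with Si instead.

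Collagens are trimers that form fibrils, sheets and anchoring filaments outside the cell, and laminins are cross-shaped trimers of an alpha, a beta and a gamma chain that organise the basement membrane under an epithelium. Integrins are receptors made of an alpha and a beta subunit that bind these proteins and link them to the cytoskeleton. In the breast, laminin receptors such as α6β4, which is part of the hemidesmosome, hold epithelial cells to the basement membrane. A chain without its partners is generally not assembled into the full protein, so the partners are given side by side.

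The ASO-NC library held 48092494 counts and the ASO-1235 library 37916307. LINC01235 had 1337 counts in the first and 0 in the second, at least 373-fold lower there against a floor of 3 counts. With 1 library per group there is no replicate check and no p-value, and each difference below is between these libraries. Ratios are ASO-1235 over ASO-NC after TMM scaling, which corrects for library size and composition. Values in brackets after a ratio are exact 95% intervals that cover counting error only. CPM stands for counts per 1000000 counts of the TMM-scaled library size, which was 46695545 for ASO-NC and 39050615 for ASO-1235. The minimum of 1 CPM alone was taken on the unscaled totals. Calls of higher or lower were made for genes at 1 CPM in either library or both, and needed a difference of 1.5-fold or more together with an interval clear of 1. Levels are compared between genes only as CPM per kb of the longest annotated transcript. They are RNA levels and say nothing of protein at the cell surface. The 6 epithelial marker genes all reached 1 CPM and summed to 9048 and 8435 CPM, ERBB2 with them at 4860 and 4628 CPM, and of 6 endothelial markers VWF alone reached 1 CPM.

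Of the 82 genes, 46 reached 1 CPM in at least 1 library: 23 collagen, 7 laminin and 16 integrin genes. In the ASO-1235 library 8 of the 46 were called higher (17.4%, against 6.4% of all 14352 genes at 1 CPM) and 3 were called lower (6.52%, against 2.95% of all genes). With libraries scaled by their total count, the calls were 9 higher and 2 lower among these genes, and 1235 higher and 284 lower in place of 919 and 423 among all genes. The called genes other than COL5A2 were at a mean under 10 CPM. Of the 26 genes at a mean under 10 CPM, 7 were called higher and 3 lower, which is 26.9% and 11.5%, against 14.6% and 7.22% of all genes in that range. Of the 20 at a mean of 10 CPM or more, COL5A2 was called higher (5%), none was called lower and all others lay between 0.820 and 1.41. Of all 14352 genes, 5264 were at a mean under 10 CPM, and 149 of the remaining genes were called higher. Counts of 46 genes are small, and no test compares these shares.

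**Figure D1:**
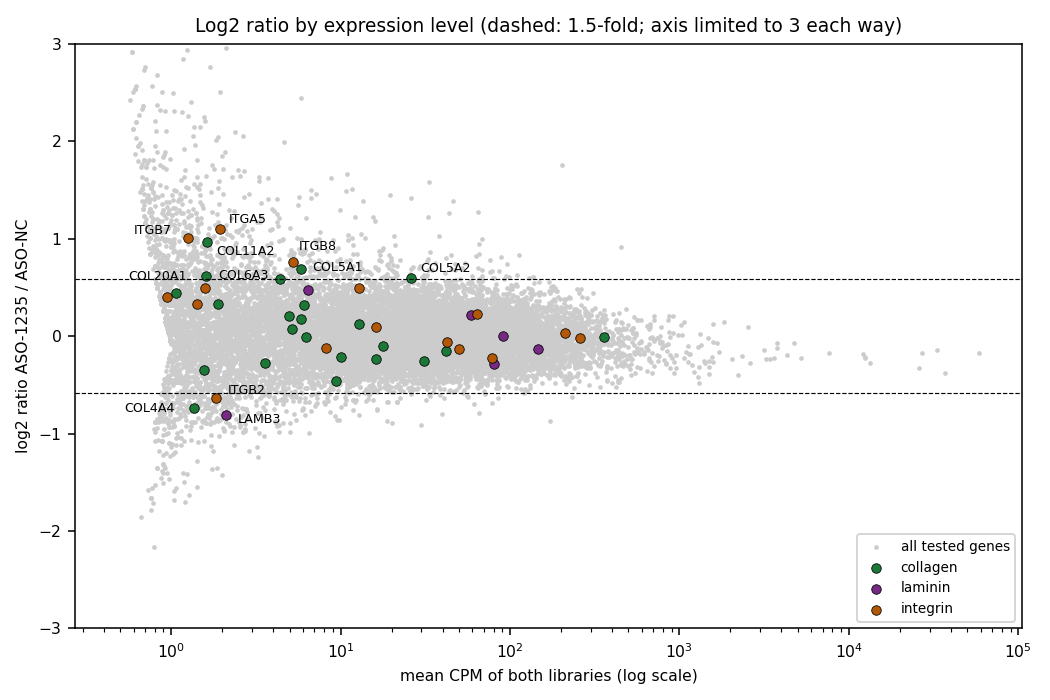
Log2 ratio ASO-1235 over ASO-NC against the mean CPM of both libraries (log axis) for all genes at 1 CPM (grey) and for collagen (green), laminin (purple) and integrin genes (orange), 1 library per group, with the 11 called genes named. The called genes lie at the left, at low CPM, apart from COL5A2, and the abundant members lie inside the dashed 1.5-fold lines. LINC01235 and 12 other genes beyond a log2 ratio of 3 either way are not drawn.

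The families differed little in the middle of their ranges. The median log2 ratio was 0.07 over the 23 collagen genes, −0.0020 over the 7 laminin genes and 0.16 over the 16 integrin genes, beside 0.00087 over all genes at 1 CPM. The laminin median turned to 0.0041 under upper quartile scaling and to 0.08 under total count, so it has no direction. With a minimum of 5 CPM the integrin median was 0.0059. With the trend of the ratio over transcript GC content and length taken out, the collagen median was 0.17, the laminin median −0.0081 and the integrin median 0.086. The median over all genes was then −0.014, and that of the collagens was the highest of the families. Ratios were above 1 for 12 and below 1 for 11 collagen genes, above 1 for 3 and below 1 for 4 laminin genes, and above 1 for 10 and below 1 for 6 integrin genes. By family, 5 collagen and 3 integrin genes were called higher and 1 gene of each family was called lower: COL4A4, LAMB3 and ITGB2. The summed level of the families was close to equal: 579.9 and 580.02 CPM for the collagens in the ASO-NC and ASO-1235 libraries, 399.95 and 382 CPM for the laminins, and 757 and 760.2 CPM for the integrins.

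**Figure D2:**
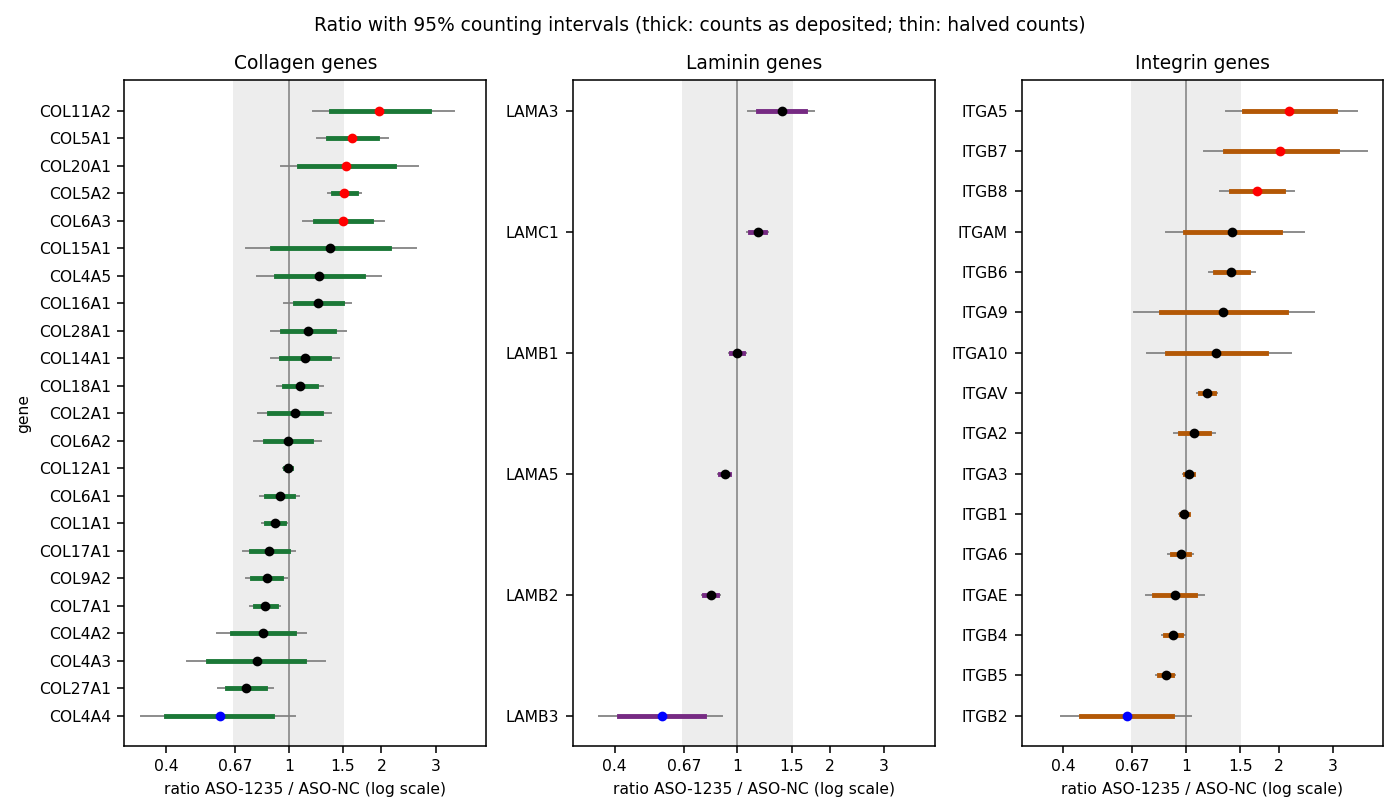
Ratio ASO-1235 over ASO-NC (log axis) of the genes at 1 CPM, by family, with exact 95% counting intervals from the counts as deposited (thick lines) and from halved counts (thin grey lines), and grey shading where the ratio is within 1.5-fold of 1. Red points are the 8 genes called higher and blue points the 3 called lower. The thin lines of COL20A1, COL4A4 and ITGB2 reach 1.

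Subunits of laminin-binding integrins were among the most abundant members, and none with 1 CPM was called. ITGB1, the beta subunit that most of these receptors share, had the highest level of all 82 genes, at 68.8 CPM per kb in the ASO-NC and 68.0 CPM per kb in the ASO-1235 library. Its counts were 12154 and 10043, at a ratio of 0.988 (0.962 to 1.01). ITGA3, the alpha subunit of the laminin receptor α3β1, came next at 38.3 and 39.0 CPM per kb, with 9787 and 8352 counts, with its ratio at 1.02 (0.991 to 1.05). The intervals of both include 1. ITGA6 and ITGB4, the subunits of the hemidesmosome receptor α6β4 and markers of epithelial cells, were at similar levels to each other. ITGA6 (chromosome 2, 172427354 to 172506282) had 2014 and 1618 counts, at a ratio of 0.961 (0.899 to 1.03) and 7.68 and 7.38 CPM per kb. ITGB4 (chromosome 17, 75721328 to 75757818) had 2446 and 1861 counts, at a ratio of 0.910 (0.856 to 0.967) and 8.85 and 8.05 CPM per kb. With the trend of the ratio over transcript GC content and length taken out, the ratio of ITGB4 was 1.002. ITGA7, the remaining alpha subunit of this group, stayed under 1 CPM with 37 and 26 counts.

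Among the laminin chains, those of laminin 511 and 521, which contain LAMA5, LAMC1 and either LAMB1 or LAMB2, were abundant, and none was called. LAMB1 stood at 15.8 CPM per kb in both libraries, from 4264 and 3561 counts, at a ratio of 0.999 (0.955 to 1.04). LAMA5, the alpha chain of both trimers, had 7118 and 5416 counts, at a ratio of 0.910 (0.878 to 0.943), and LAMB2 had 4131 and 2833, at a ratio of 0.820 (0.781 to 0.860). LAMC1, the gamma chain, had 2536 and 2469 counts, with its ratio at 1.16 (1.10 to 1.23). It was the scarcest chain of both trimers per length, at 6.88 and 8.01 CPM per kb. So LAMB2 was somewhat lower and LAMC1 somewhat higher in the ASO-1235 library, both by less than 1.5-fold. With the GC and length trend removed, LAMB2 was at 0.900, LAMC1 at 1.13 and LAMA5 at 0.971.

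LAMA3 and LAMB3, an alpha and a beta chain of epithelial laminins, differed in direction. LAMA3 had 250 and 291 counts, at a ratio of 1.39 (1.17 to 1.65), under the size asked for. LAMB3 had 126 and 60 counts (2.698 and 1.54 CPM), at a ratio of 0.569 (0.412 to 0.780), and was called lower, also on halved counts (0.356 to 0.893). Per length LAMA3 was at 0.502 and 0.699 CPM per kb and LAMB3 at 0.627 and 0.357, so LAMB3 was the higher of these in the ASO-NC library and the lower in the ASO-1235 library. All these levels lie far below those of the chains of laminin 511.

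LAMB3 is shown by the 250 bases before its start (RefSeq, GRCh38.p14), as the laminin chain with a call. Capitals mark a GC box, GGGCGG on either strand, a sequence bound by Sp1 family factors.
LAMB3 (chr1:209652426-209652675, minus strand): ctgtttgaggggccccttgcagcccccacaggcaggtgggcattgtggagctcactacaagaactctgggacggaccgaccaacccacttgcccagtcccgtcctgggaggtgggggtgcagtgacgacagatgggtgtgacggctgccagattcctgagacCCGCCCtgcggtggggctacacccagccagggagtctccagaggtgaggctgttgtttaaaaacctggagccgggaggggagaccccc

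The window holds 1 GC box and no AP-1 motif (TGANTCA on either strand). Over all 35093 windows of this length, 42.6% hold a GC box and 6.57% an AP-1 motif. Of the windows of 35 members at 1 CPM, 24 hold a GC box, and LAMA3 is the member with an AP-1 motif. A match is a description of the letters and shows no binding.

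Several laminin chains stayed under 1 CPM in both libraries. LAMA1 had 10 and 3 counts, LAMA2 14 and 1, LAMA4 10 and 14, LAMB4 6 and 11, and LAMC3 8 and 5. Of 10 laminin trimers listed, 5 had every chain at 1 CPM, among them 311, 321, 511 and 521. The trimers with LAMA1, LAMA2 or LAMA4 lacked that chain at this level.

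Of the 3 integrin genes called higher, ITGA5 and ITGB8 belong to integrins that bind RGD proteins such as fibronectin and latent TGF-beta. Both lie at a mean under 10 CPM, where 14.6% of all genes were called higher. ITGAV, ITGB1, ITGB5 and ITGB6, the other subunits of complete receptors of this kind, were not called. ITGA5 (chromosome 12, 54395261 to 54419460), whose product pairs with ITGB1 in the fibronectin receptor α5β1, had 57 and 103 counts (1.22 and 2.64 CPM). Its ratio of 2.16 (1.55 to 3.04) was the highest of the 46 genes, and its interval excluded 1 on halved counts (1.35 to 3.59). ITGB8 (chromosome 7, 20330702 to 20415754), the partner of ITGAV in the latent TGF-beta receptor αVβ8, had 182 and 259 counts (3.90 and 6.63 CPM), at a ratio of 1.70 (1.40 to 2.07). Without the GC and length trend it was at 1.41 and no longer called. ITGB6, the epithelial partner of ITGAV that also binds latent TGF-beta, had 501 and 589 counts, at a ratio of 1.41 (1.25 to 1.59), under the size asked for. ITGB5, the partner in the vitronectin receptor αVβ5, went the other way with 3915 and 2811 counts, at a ratio of 0.859 (0.818 to 0.901). With the GC and length trend removed ITGB5 was at 0.920.

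ITGAV itself, the alpha subunit common to these receptors, had 2751 and 2692 counts, at a ratio of 1.17 (1.11 to 1.23), which was 0.988 with the GC and length trend removed. Of its beta partners, ITGB5 was above ITGAV per length in both libraries, at 19.2 and 16.5 CPM per kb against 8.38 and 9.81. ITGB6 at 2.29 and 3.23 and ITGB8 at 0.445 and 0.758 CPM per kb lay below it. The order ITGB5, ITGB6, ITGB8 was the same in both libraries, while the gap between ITGAV and ITGB8 was 18.8-fold in the ASO-NC and 12.9-fold in the ASO-1235 library. ITGB3, the beta subunit of the platelet and endothelial receptors, had 8 counts in each library, and ITGA2B and ITGA8 stayed under 1 CPM.

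The windows of 250 bases before the starts of ITGA5 and ITGB8 (RefSeq, GRCh38.p14) are shown because these subunits were called higher while ITGB1 and ITGAV, their partners, were not. Capitals mark GC boxes (GGGCGG or its complement CCGCCC).
ITGA5 (chr12:54419267-54419516, minus strand): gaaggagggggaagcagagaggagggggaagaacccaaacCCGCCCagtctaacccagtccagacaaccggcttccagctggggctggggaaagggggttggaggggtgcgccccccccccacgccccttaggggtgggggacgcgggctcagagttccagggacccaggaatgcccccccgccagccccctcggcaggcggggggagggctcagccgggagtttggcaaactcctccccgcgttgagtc
ITGB8 (chr7:20330650-20330899, plus strand): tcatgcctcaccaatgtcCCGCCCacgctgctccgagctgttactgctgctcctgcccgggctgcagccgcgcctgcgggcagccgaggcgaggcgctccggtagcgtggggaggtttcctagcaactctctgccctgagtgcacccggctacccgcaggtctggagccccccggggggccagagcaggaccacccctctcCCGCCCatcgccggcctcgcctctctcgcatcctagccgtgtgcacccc

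ITGA5 has 1 such box and ITGB8 has 2, and neither window holds an AP-1 motif or a TATAAA sequence.

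Of the collagen-binding integrin alpha subunits, 2 of 4 reached 1 CPM and none was called. ITGA2, the alpha subunit of the epithelial collagen receptor α2β1, had 732 and 652 counts, at a ratio of 1.07 (0.957 to 1.19), and 1.99 and 2.12 CPM per kb. ITGA10 had 59 and 62 counts, at a ratio of 1.26 (0.865 to 1.83), and ITGA1 and ITGA11 had 2 and 4 counts each. So α2β1 was, among the collagen-binding integrins alone, the receptor with the most RNA for its scarcer subunit, and the interval of ITGA2 included 1. ITGA9, the alpha subunit of α9β1, which binds tenascin, had 38 and 42 counts, at a ratio of 1.32 (0.832 to 2.11), and ITGA4 had 4 and 2.

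Integrin subunits better known from leukocytes were also counted at low levels. ITGB7, which pairs with the alpha subunits of α4β7 and αEβ7, had 39 and 66 counts, at a ratio of 2.02 (1.34 to 3.09; 1.15 to 3.87 on halved counts). In the annotation 42.1% of the exon bases of ITGB7 are shared with ZNF740 on the opposite strand, which had 2130 and 1645 counts, and the strand setting is not given, so the count of ITGB7 is uncertain. ITGAE, its partner in αEβ7, had 401 and 308 counts, at a ratio of 0.918 (0.789 to 1.07). ITGB2, the beta subunit of the leukocyte receptors, had 104 and 56 counts, at a ratio of 0.644 (0.457 to 0.899), and was called lower, although its interval on halved counts included 1 (0.392 to 1.04). ITGAM, which pairs with it, had 61 and 72 counts, at a ratio of 1.41 (0.990 to 2.02). ITGAL had 23 and 26 counts, and ITGAX and ITGAD had 0 in both libraries. Of 8 immune marker genes LYZ alone reached 1 CPM, with 98 and 44 counts, the list summed to 2.78 CPM in the ASO-NC and 2.05 CPM in the ASO-1235 library, and PTPRC, the general leukocyte marker, had 0 and 8 counts. Both libraries are of the HCC1954 line, not of mixed tissue, and the source of these low counts was not tested. In bulk RNA a difference in some of the cells and a difference in all of them cannot be told apart.

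**Figure D3:**
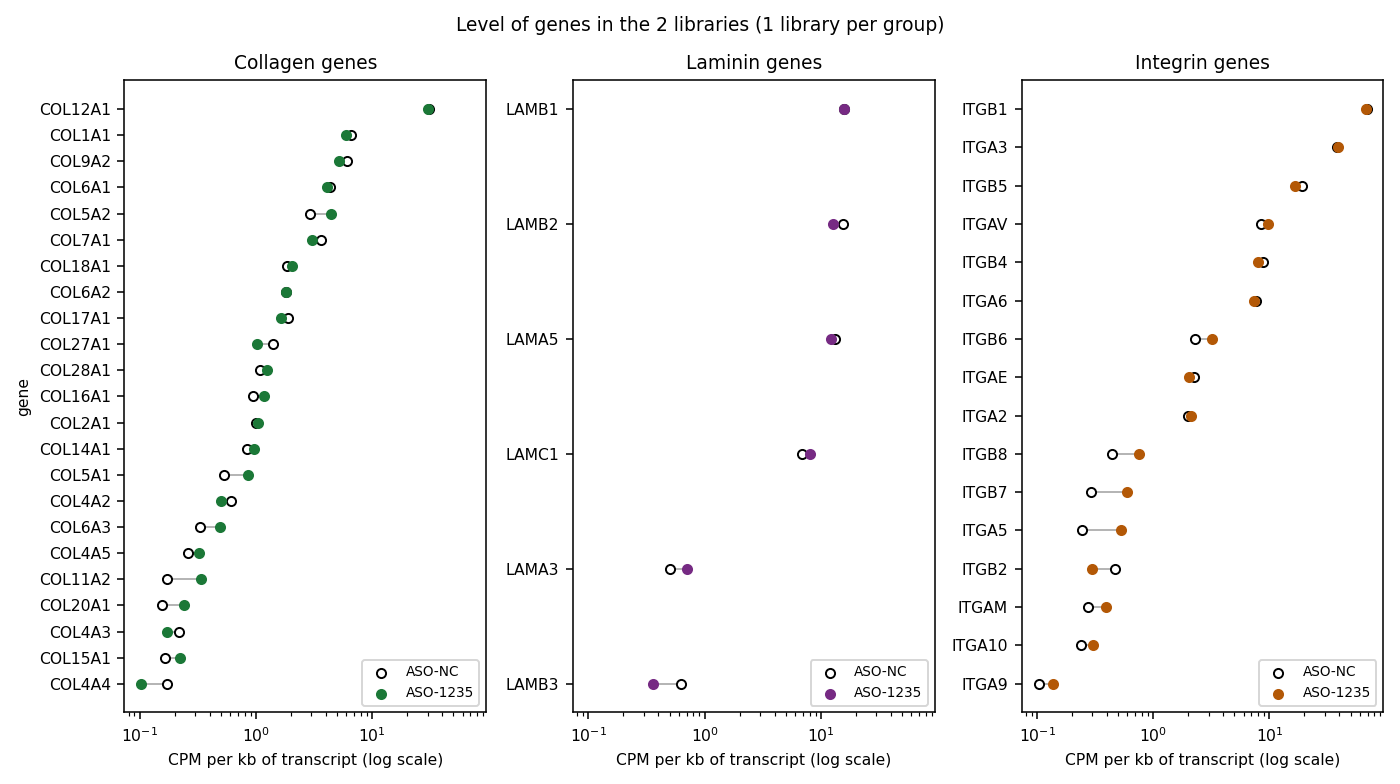
Level of the genes at 1 CPM, as CPM per kb of the longest transcript on a log axis, in the ASO-NC (open circles) and ASO-1235 library (filled circles), by family. ITGB1, ITGA3 and COL12A1 lie highest, and the open and filled circles of most genes above 5 CPM per kb nearly coincide.

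Among the collagens, COL12A1, a collagen associated with the surface of fibrils, was the most abundant at 30.8 and 30.5 CPM per kb. Its 16833 and 13955 counts gave a ratio of 0.991 (0.969 to 1.01), so it did not differ beyond counting error. COL1A1, the main chain of the fibril-forming collagen I, was second with 2067 and 1559 counts, at a ratio of 0.902 (0.844 to 0.964). With the GC and length trend removed COL1A1 was at 0.981. COL1A2, the other chain of collagen I, had 2 and 0 counts, so the RNA of both chains of the usual trimer was not found here at 1 CPM. COL3A1, the fibrillar collagen usually made with collagen I, had 15 and 12 counts. COL9A2 had 819 and 581 counts, at a ratio of 0.848 (0.761 to 0.945), while its partners COL9A1 and COL9A3 had 4 and 0, and 23 and 25 counts.

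Collagen V, a minor fibrillar collagen that controls fibril diameter, was higher through both of its chains. COL5A1 (chromosome 9, 134641774 to 134844843) had 208 and 280 counts (4.45 and 7.17 CPM), at a ratio of 1.61 (1.34 to 1.94). COL5A2 (chromosome 2, 189031896 to 189225312) had 964 and 1223 counts (20.6 and 31.3 CPM), at a ratio of 1.52 (1.39 to 1.65). Both intervals excluded 1 on halved counts, at 1.24 to 2.10 and 1.34 to 1.71. COL5A2 was 5.54-fold above COL5A1 per length in the ASO-NC and 5.23-fold in the ASO-1235 library, so the proportion of the chains differed little. COL5A2 lies just past 1.5-fold, and without the GC and length trend it was at 1.46. COL5A3, the remaining chain, had 2 counts in each library. Among the complete trimers listed, collagen V alone had each listed chain called.

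COL5A1 is shown by the 250 bases before its start (RefSeq, GRCh38.p14), with GC boxes (GGGCGG or CCGCCC) in capitals.
COL5A1 (chr9:134641553-134641802, plus strand): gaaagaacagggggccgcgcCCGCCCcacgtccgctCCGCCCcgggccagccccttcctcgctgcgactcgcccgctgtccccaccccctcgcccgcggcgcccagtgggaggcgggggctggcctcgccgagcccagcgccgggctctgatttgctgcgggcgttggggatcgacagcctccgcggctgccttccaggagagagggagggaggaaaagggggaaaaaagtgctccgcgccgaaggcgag

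The window holds 2 GC boxes and no AP-1 motif.

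Of the other fibrillar collagens, COL11A2, which resembles collagen V chains and is known from cartilage, had 51 and 84 counts, at a ratio of 1.97 (1.37 to 2.85; 1.20 to 3.44 on halved counts). COL27A1 lay the other way with 508 and 309 counts, at a ratio of 0.727 (0.629 to 0.839), without reaching 1.5-fold. COL2A1 had 236 and 207 counts, at a ratio of 1.05 (0.866 to 1.27). COL11A1 had 0 in both libraries and COL24A1 22 and 13. The fibrillar collagens had 3 calls among 6 genes at 1 CPM, all higher, and these were the chains of collagen V and COL11A2. Of all genes 6.4% were called higher, and 14.6% of those at a mean under 10 CPM, where COL5A1 and COL11A2 lie. With the GC and length trend removed 2 of these calls remained, without COL5A2. A class of 6 genes is too small to set against these shares. Of 8 fibroblast marker genes, FAP alone reached 1 CPM, with 28 and 53 counts, with its ratio at 2.26 (1.41 to 3.72). PDGFRB, THY1 and POSTN had 0 in both libraries, and the list summed to 1.11 CPM in the ASO-NC and 2.13 CPM in the ASO-1235 library. The libraries are of a cell line, and the source of these low marker counts was not tested.

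Collagen VI, which forms beaded microfibrils, was uneven. COL6A1 had 858 and 670 counts, at a ratio of 0.934 (0.843 to 1.03), and COL6A2 had 294 and 245, at a ratio of 0.996 (0.838 to 1.18). COL6A3, the largest chain, had 164 and 206 counts, at a ratio of 1.502 (1.22 to 1.86; 1.11 to 2.03 on halved counts), and sits at the limit of the call. It was the scarcest of the chains in both libraries, at 0.327 and 0.491 CPM per kb. The chain that is scarcest was therefore the one that differed, and COL6A1 exceeded it 13.3-fold in the ASO-NC and 8.25-fold in the ASO-1235 library.

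Collagen IV, the network collagen of basement membranes, was weakly expressed, and COL4A4 alone was called. COL4A2 had 184 and 127 counts, at a ratio of 0.825 (0.653 to 1.04), and COL4A1, its partner in the common trimer, had 28 and 34, under 1 CPM. COL4A3 had 82 and 54 counts, at a ratio of 0.787 (0.548 to 1.12). COL4A4, which forms a trimer with COL4A3 and COL4A5, had 80 and 40 counts, at a ratio of 0.598 (0.398 to 0.884), and was called lower, but its interval on halved counts included 1 (0.331 to 1.05). COL4A5 had 78 and 82 counts, at a ratio of 1.26 (0.911 to 1.74), and COL4A6 had 4 and 6. Of these 6 genes 4 reached 1 CPM, and their ratios were below 1 for 3 and above 1 for 1.

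The collagen IV genes lie in pairs that start back to back, COL4A1 with COL4A2 on chromosome 13, COL4A3 with COL4A4 on chromosome 2 and COL4A5 with COL4A6 on chromosome X. Between the RefSeq starts lie 126, 418 and 379 bases. The shortest of these intervals (GRCh38.p14) is shown because the genes on its sides had unequal counts, with a GC box in capitals.
COL4A1 to COL4A2 (chr13:110307158-110307283, plus strand): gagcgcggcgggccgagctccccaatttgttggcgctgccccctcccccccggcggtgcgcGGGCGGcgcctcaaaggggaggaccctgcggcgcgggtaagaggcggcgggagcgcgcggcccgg

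Of these pairs, COL4A2 was 4.98-fold above COL4A1 and COL4A5 was 16.4-fold above COL4A6 per length, as means of both libraries, whereas COL4A3 and COL4A4 were within 1.42-fold and both had ratios below 1. Of 13 pairs of members within 250 kb of each other, these included, 4 had both genes at 1 CPM. Gaps in level per length ran from 1.42-fold for COL4A3 and COL4A4 and 2.31-fold for COL6A1 and COL6A2 to 452-fold for LAMB1 over LAMB4. ITGA2 was 305-fold above ITGA1 and COL5A2 64.7-fold above COL3A1, where the lower gene had at most 15 counts in a library.

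The collagens of the epithelial attachment zone had ratios somewhat below 1 and were not called. COL17A1, a transmembrane collagen of the hemidesmosome, had 502 and 363 counts, at a ratio of 0.865 (0.753 to 0.992; 0.708 to 1.05 on halved counts). COL7A1, which forms the anchoring fibrils beneath hemidesmosomes, had 1576 and 1105 counts, at a ratio of 0.838 (0.776 to 0.906). The other genes of this zone were mixed. LAMB3 was called lower, ITGB4 was at 0.910, the interval of ITGA6 included 1, and LAMA3 had a ratio above 1. The linker genes DST and PLEC are named after their values were seen. DST had 5829 and 6610 counts, at a ratio of 1.36 (1.31 to 1.40), which was 1.16 with the GC and length trend removed. PLEC had 20654 and 15674 counts, at a ratio of 0.907 (0.889 to 0.927), and the linker gene CD151 was at 0.768. With the GC and length trend removed, PLEC was at 0.962, CD151 at 0.880, COL17A1 at 0.925 and COL7A1 at 0.902, all nearer to 1. COL18A1, whose end fragment is endostatin, had 573 and 521 counts, at a ratio of 1.09 (0.964 to 1.23), and shares 16.4% of its exon bases with SLC19A1 on the other strand. COL20A1 had 59 and 76 counts, at a ratio of 1.54 (1.08 to 2.20), though the interval from halved counts included 1 (0.941 to 2.63). COL14A1, COL15A1, COL16A1 and COL28A1, the remaining collagen genes at 1 CPM, had ratios between 1.13 and 1.37 and were not called.

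Of the 36 genes under 1 CPM, COL11A1, COL6A5, ITGAX and ITGAD had 0 in both libraries, and the others had at most 37 counts. COL6A6, COL8A1, COL13A1, COL19A1, COL21A1, COL22A1, COL23A1 and COL26A1 were among these. Among them COL10A1, a collagen of growth plate cartilage, had 1 and 13 counts, at a ratio of 15.5 (2.33 to 661). COL8A2 had 0 and 7 counts, at least 2.79-fold higher against a floor of 3 counts, and COL25A1 had 5 and 16, at a ratio of 3.83 (1.34 to 13.4; 0.955 to 46.2 on halved counts). These counts are too small for a statement on size.

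Set side by side as receptors and ligands, 13 of 24 integrin pairs and 8 of 18 trimers or chain sets had every subunit at 1 CPM. For laminin, 3 receptors and 5 trimers were complete, and for collagen 2 receptors and 3 trimers. The laminin receptors α3β1, α6β1 and α6β4 and the laminins 511 and 521 had subunits with ratios between 0.820 and 1.16. On the collagen side α2β1 was at 1.99 and 2.12 CPM per kb for its scarcer subunit, and the complete trimers were collagen V, collagen VI and the COL4A3, COL4A4 and COL4A5 trimer. The subunits of α2β1 had ratios of 0.988 and 1.07, whereas COL5A1 and COL5A2 were both called higher. The scarcer subunits of complete receptors and trimers, by the mean of both libraries, included ITGA5, ITGB7, ITGB8, COL5A1 and COL6A3, called higher, and COL4A4, called lower. All of these lie at a mean under 10 CPM, where 14.6% of all genes were called higher and 7.22% lower. ITGA2, ITGA3, ITGA6, ITGA9, ITGA10, ITGAM, ITGAV, ITGB6, LAMA3 and LAMC1, the scarcer subunits of others, were not called. In the ASO-1235 library alone, ITGB2, called lower, was scarcer than its partner ITGAM, at 0.300 against 0.389 CPM per kb.

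**Figure D4:**
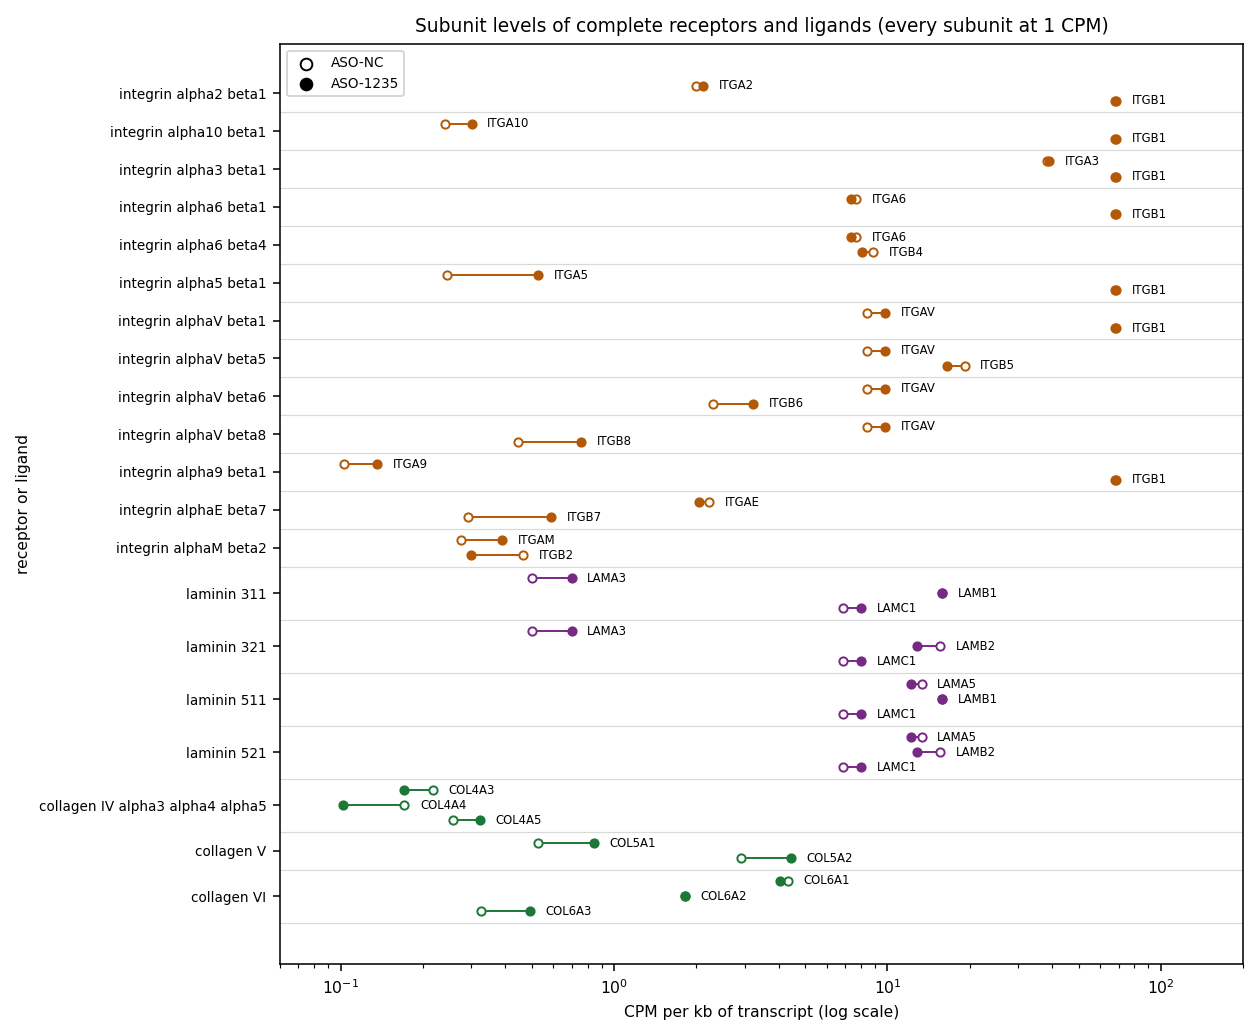
Levels of the subunits of complete receptors and ligands, as CPM per kb on a log axis, in the ASO-NC (open) and ASO-1235 library (filled), with integrins in orange, laminins in purple and collagens in green. In collagen V both chains are higher, and in α5β1 and αVβ8 the scarce subunit is higher while its partner differs little.

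The members have longer transcripts than most genes, with a median of 5842.5 nucleotides against 3521.5 over all genes at 1 CPM, and a higher GC content, with medians of 54.7% and 48.2%. The log2 ratio went down with GC content over all genes, with a Spearman rho of −0.46 across 14020 genes. Across the 46 members rho was −0.26 with GC content and −0.32 with mean CPM. Genes of 1 library pair share depth and preparation, so these are descriptions. With the GC and length trend removed, 7 members were called higher and 2 lower: COL5A2, ITGB8 and ITGB2 were no longer called, and ITGAM was. Over all genes 792 higher and 288 lower of 14020 were called in that setting.

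Genes that process or bind this matrix held 12 calls in the 7 lists examined, 10 higher and 2 lower among 109 genes at 1 CPM. These are 9.17% and 1.83%, against 6.4% and 2.95% of all genes, so the lists lie near the background. Of 14 genes of collagen modification and folding at 1 CPM none was called, with a median log2 ratio of −0.12. P4HB, the most abundant of them, a subunit of prolyl 4-hydroxylase, had 24490 and 16855 counts, at a ratio of 0.823 (0.807 to 0.839). Among 10 genes of propeptide cleavage and crosslinking the median was −0.08, and 2 were higher and 1 lower. ADAMTS3, a procollagen peptidase, had 10 and 52 counts, at a ratio of 6.22 (3.13 to 13.7). LOX, the lysyl oxidase, had 33 and 47 counts, at a ratio of 1.70 (1.07 to 2.74), and PCOLCE, an enhancer of propeptide cleavage, 73 and 36, at a ratio of 0.590 (0.384 to 0.891). The calls of LOX and PCOLCE were lost on halved counts (0.869 to 3.48 and 0.320 to 1.08) and without the GC and length trend, at 1.49 and 0.676. PXDN, the peroxidasin gene that crosslinks collagen IV and the most abundant of this list, had 5458 and 4340 counts, at a ratio of 0.951 (0.913 to 0.990).

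Of 23 other basement membrane and ligand genes the median was 0.02, with 2 higher and 1 lower. NID1, which links laminin to collagen IV, had 8 and 41 counts, at a ratio of 6.13 (2.84 to 15.1). NTN4, a laminin-related netrin, had 179 and 244 counts, at a ratio of 1.63 (1.34 to 1.99), and the fibulin gene FBLN1 1236 and 646, at a ratio of 0.625 (0.567 to 0.688). Without the GC and length trend FBLN1 was at 0.695 and not called. AGRN, which encodes the basement membrane proteoglycan agrin and was the most abundant of this list, had 9850 and 6241 counts, at a ratio of 0.758 (0.734 to 0.782). The collagenase gene MMP13 had 76 and 116 counts, at a ratio of 1.83 (1.36 to 2.47), and the inhibitor gene TIMP1 84 and 114, at a ratio of 1.62 (1.21 to 2.18), and no gene of the 13 proteases and inhibitors was called lower. Ratios were below 1 for 5 of these 13, among them MMP17, the most abundant, with 2423 and 1571 counts, at a ratio of 0.775 (0.727 to 0.826). The 8 other collagen and laminin receptors and the 3 hemidesmosome linkers held no call. RPSA, the laminin receptor and ribosomal protein gene, had 14488 and 11635 counts, at a ratio of 0.960 (0.937 to 0.984). CD151, the tetraspanin that binds α3β1 and α6β4, had 5413 and 3476 counts, at a ratio of 0.768 (0.736 to 0.801).

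Inside the cell, 4 of 38 integrin activators and adhesion adaptors were called higher and none lower, with a median of −0.04. This is 10.5% higher, against 6.4% of all genes, and 0 lower against 2.95%. CASS4, a scaffold of the Cas family at focal adhesions, had 84 and 384 counts, at a ratio of 5.47 (4.31 to 7.01). LPXN, the leupaxin gene of the paxillin family, had 453 and 642 counts, at a ratio of 1.69 (1.5003 to 1.92), and FERMT2, which encodes the integrin activator kindlin-2, 720 and 966, at a ratio of 1.60 (1.46 to 1.77). FERMT2 was at 1.33 with the GC and length trend removed. TGFB1I1, named after its values were seen, encodes the paxillin relative Hic-5 and had 43 and 76 counts, at a ratio of 2.11 (1.44 to 3.15). The most abundant adaptor, the actin crosslinker gene ACTN4, had a ratio of 0.903 (0.884 to 0.921).

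**Figure D5:**
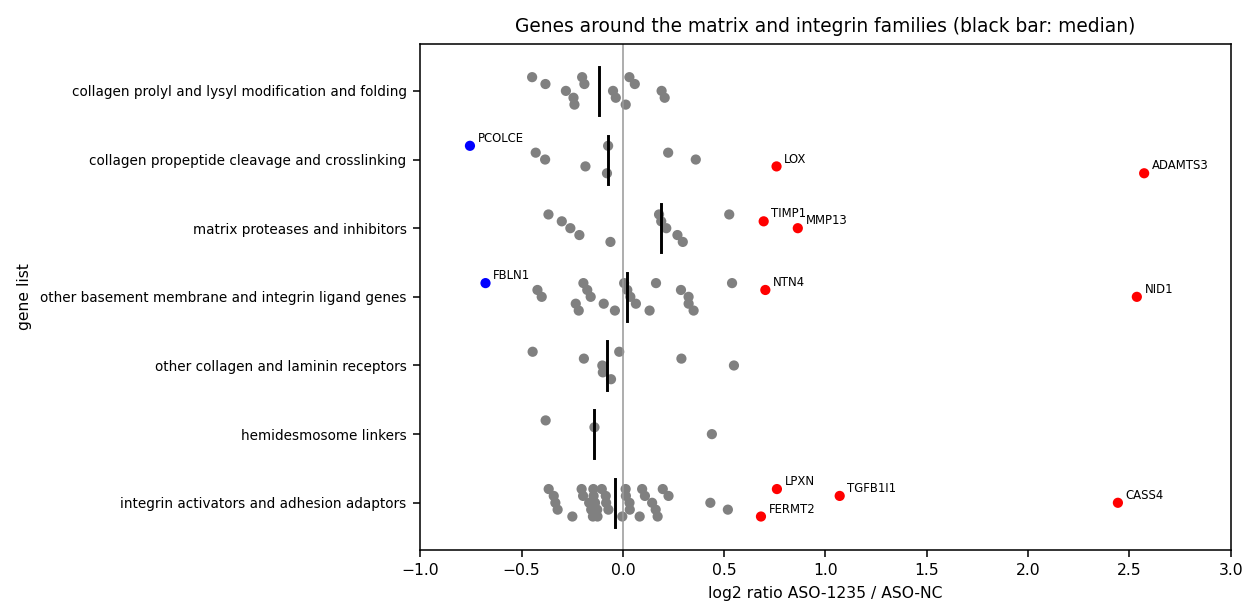
Log2 ratio ASO-1235 over ASO-NC of the genes at 1 CPM in 7 lists around the matrix and integrin families, with a point per gene, black bars at the list medians, and called genes named in red (higher) or blue (lower). Medians lie between −0.14 and 0.19, and ADAMTS3, NID1 and CASS4 lie farthest to the right.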

How the data were processed

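Polyadenylated RNA of HCC1954 cells was sequenced in 1 library per group. The deposited values are raw counts per gene, made by the authors with STAR 2.7.11a and featureCounts 2.0.6 on hg38, per the submitters' processing notes. The strand setting is not given in the sources used here. Library totals were 48092494 and 37916307 counts, and 3 lines without counts were left out. Of the counts from 1 to 1000, 67.5% and 64.0% were even, so mates may have been counted separately and intervals were also computed on halved counts.

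TMM factors came from edgeR 4.0.16 (R 4.3.3) over the genes that reached 1 CPM in either library. edgeR was used for scaling alone. Ratio intervals are exact (Clopper-Pearson, 95%, scipy 1.17.1), and log2 ratios use a prior count of 0.5. Lengths, GC content and positions are from GENCODE 29 on GRCh38, and starts and sequences from RefSeq (GRCh38.p14), with 58 of the 82 symbols matched. Motifs were searched on both strands over 250 bases. RefSeq starts can differ from the GENCODE gene bounds, so a window can lie partly inside the gene as GENCODE places it. The scripts were tested on simulated data.

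Genes named by rule were ITGA6, ITGB4, the called members, the 5 members of each family with the highest level, the subunits of complete receptors and ligands, and of each surrounding list the most abundant gene and up to 3 called genes each way. The remaining members are also named, apart from 1 item that enters the counts, sums and medians and is not reported here. The members, the 11 gene lists and the tests were chosen with earlier results of these data known. Alternatives were DESeq2 1.42.0 size factors, upper quartile and total count scaling, no minimum, 5 CPM, 2-fold, halved counts, a prior count of 5, the median transcript length, and removal of the GC and length trend (splines with 5 degrees of freedom).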

Additional observations from a re-analysis of the deposited data

How the results depend on the processing

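No paired analysis was possible because each group has 1 library, and for the same reason no library could be left out. The 8 members called higher became 4 with a minimum of 5 CPM (COL5A1, COL5A2, COL6A3 and ITGB8, of 32 members then tested) and 2 at 2-fold (ITGA5 and ITGB7). The other settings gave between 7 and 11. The 3 called lower became 0 with a minimum of 5 CPM, 1 on halved counts (LAMB3) and 0 at 2-fold, and between 2 and 4 otherwise. Fewer genes are tested at 5 CPM and a larger size is asked for at 2-fold. Over all genes the 919 higher and 423 lower became 279 and 101 of 10757 at 5 CPM, and 363 and 74 of 14352 at 2-fold. With no minimum they became 2382 and 1102 of 29875. They became 751 and 291 on halved counts, and 792 and 288 of 14020 with the GC and length trend removed. Family medians stayed within the 95% order-statistic interval of the members' log2 ratios, a wide interval, and that of the laminins changed sign as given above. Of the 36 genes followed by name, removal of the GC and length trend moved 13 and total count scaling 9. No called member changed direction, but 5 others did without the GC and length trend (COL6A1, COL6A2, ITGA2, ITGAV and ITGB4), 5 with total count (COL12A1, COL6A2, ITGA6, ITGB1 and LAMB1) and 2 with upper quartile (COL6A2 and LAMB1). Of the 10 highest levels per length, 8 were shared with levels on the median transcript length. Counts under about 100 limit the calls of ITGA5, ITGB7, COL11A2, COL20A1 and COL4A4, and the spread between cultures is unknown.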

Other observations

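The annotation names 17 genes as antisense or divergent transcripts of members, and 1 of them reached 1 CPM. This was ITGB8-AS1, with 29 and 59 counts in the ASO-NC and ASO-1235 libraries and its ratio at 2.43 (1.53 to 3.94; 1.27 to 5.07 on halved counts), in the same direction as ITGB8. It overlaps exons of ITGB8 by 98 bases on the opposite strand. The part of shared reads in either count was not tested. LAMC1-AS1 had 2 and 10 counts.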
